A study of Mus musculus with 4 samples.

Results

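CpG islands that lie outside annotated genes and away from gene starts were examined in 4 RRBS libraries of mouse cells. An island was a stretch of over 200 bp of the mm10 sequence in which G and C made up 50% of bases or more and CpGs reached over 0.6 of the number that base composition predicts (the observed over expected ratio). It was called intergenic where it overlapped no gene of GENCODE release M21 and lay over 1 kb from every gene start. Of 23751 islands called on chromosomes 1 to 19, X and Y, 6011 were intergenic, and 1917 of those had at least 5 CpG sites listed in all 4 tables. These 1917 islands, 13.8% of the 13847 islands of any place with that many shared sites, are described here. The level of an island in a library is the unweighted mean of the percent methylation of its shared sites.

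All 4 libraries came from R1 cells. R1 is a wild-type mouse embryonic stem cell (ESC) line, and Tet/Tet is a transgenic line made from it with tet-off constructs knocked in at Dnmt1, between the promoter and the start of translation, which overexpresses the DNA methyltransferase DNMT1 as ESCs and after differentiation. R1 ESCs and Tet/Tet ESCs were grown with leukemia inhibitory factor, the Tet/Tet ESCs also with puromycin at 1 ug/ml and neomycin at 150 ug/ml. R1 neurons and Tet/Tet neurons were obtained from embryoid bodies of 2 days followed by 10 to 15 days in a neural medium. Each condition was 1 library of 1 line, so no test between conditions could be made, and each difference below has no replicate check.

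CpG islands are short stretches in which the CpG dinucleotide is frequent, whereas it is rare in most of the mammalian genome. Islands at promoters are mostly free of methylation in every cell type, while CpG-rich sequence of transposable elements is usually methylated and silenced. DNMT1 copies methylation onto the newly made strand after DNA replication, and DNMT3A and DNMT3B can add it where none was present.

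Most of the intergenic islands were of repeated sequence, and 1310 of the 1917 fell into 6 large families, called A to F here. Members of a family are linked, directly or through other members, by shared stretches of 32 bases. For each family the 300 bases richest in CpG are given for the island with most shared sites, since these families hold most of the islands described below. A single member need not be typical of its family. In R1 ESCs the islands printed for A and B had 47.7% and 13.7%, against family medians of 21.7% and 25.3%. All sequences are from the forward strand of mm10, with each CpG in capitals.
Family A, chr2:175053227-175053526: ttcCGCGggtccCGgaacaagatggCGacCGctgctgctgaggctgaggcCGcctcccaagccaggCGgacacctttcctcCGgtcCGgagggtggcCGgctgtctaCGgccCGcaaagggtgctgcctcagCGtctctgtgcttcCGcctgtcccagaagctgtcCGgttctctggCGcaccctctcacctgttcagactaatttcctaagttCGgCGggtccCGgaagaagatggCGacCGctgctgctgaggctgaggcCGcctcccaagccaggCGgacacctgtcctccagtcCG
Family B, chr3:6302533-6302832: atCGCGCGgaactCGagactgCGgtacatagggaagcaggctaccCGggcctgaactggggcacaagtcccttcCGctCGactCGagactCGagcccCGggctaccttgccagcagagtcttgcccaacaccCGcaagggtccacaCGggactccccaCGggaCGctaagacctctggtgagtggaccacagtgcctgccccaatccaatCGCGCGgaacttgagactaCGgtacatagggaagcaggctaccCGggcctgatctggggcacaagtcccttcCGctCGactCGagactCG
Family C, chrX:55519440-55519739: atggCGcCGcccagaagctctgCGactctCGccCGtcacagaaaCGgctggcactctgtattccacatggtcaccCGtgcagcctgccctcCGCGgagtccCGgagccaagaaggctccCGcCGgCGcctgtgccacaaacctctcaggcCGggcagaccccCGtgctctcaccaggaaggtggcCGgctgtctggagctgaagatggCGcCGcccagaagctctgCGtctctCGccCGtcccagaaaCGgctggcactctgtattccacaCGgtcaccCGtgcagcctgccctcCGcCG
Family D, chr11:31774591-31774890: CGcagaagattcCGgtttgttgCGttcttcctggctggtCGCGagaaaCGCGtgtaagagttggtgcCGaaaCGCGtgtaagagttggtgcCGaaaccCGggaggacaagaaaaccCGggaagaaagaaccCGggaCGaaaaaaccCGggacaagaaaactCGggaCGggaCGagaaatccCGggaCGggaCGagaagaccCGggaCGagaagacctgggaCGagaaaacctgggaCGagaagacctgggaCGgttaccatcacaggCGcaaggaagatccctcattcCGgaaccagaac
Family E, chr1:48741508-48741807: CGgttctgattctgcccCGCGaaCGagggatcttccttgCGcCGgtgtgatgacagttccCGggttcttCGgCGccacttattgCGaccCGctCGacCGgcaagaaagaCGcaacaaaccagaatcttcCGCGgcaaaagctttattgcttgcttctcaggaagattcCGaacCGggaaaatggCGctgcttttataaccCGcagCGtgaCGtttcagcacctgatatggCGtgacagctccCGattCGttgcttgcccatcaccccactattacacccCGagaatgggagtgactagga
Family F, chr11:31453327-31453611: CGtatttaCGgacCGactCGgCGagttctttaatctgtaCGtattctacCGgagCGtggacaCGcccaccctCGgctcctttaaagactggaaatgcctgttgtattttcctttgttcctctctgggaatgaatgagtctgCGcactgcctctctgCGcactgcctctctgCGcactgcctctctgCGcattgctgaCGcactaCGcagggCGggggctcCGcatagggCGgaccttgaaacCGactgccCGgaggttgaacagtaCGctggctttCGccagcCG

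A further 6 islands are shown because they have the largest differences or levels among islands with at least 10 shared sites, again with each CpG in capitals on the forward strand of mm10. The first had the largest rise and the next the largest fall from R1 ESCs to Tet/Tet ESCs, and the pair after them had the largest rise and the largest fall from R1 neurons to Tet/Tet neurons. The fifth had the highest level in Tet/Tet neurons, and the last had most shared sites of the islands under 10% in all 4 libraries.
Largest rise in ESCs, family E, chr16:68626454-68626702: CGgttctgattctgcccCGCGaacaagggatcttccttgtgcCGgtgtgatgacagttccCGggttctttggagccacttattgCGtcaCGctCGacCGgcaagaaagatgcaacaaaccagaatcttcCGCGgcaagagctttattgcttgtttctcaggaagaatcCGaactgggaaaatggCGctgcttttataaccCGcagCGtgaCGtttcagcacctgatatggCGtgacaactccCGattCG
Largest fall in ESCs, family A, chr16:69208847-69209146: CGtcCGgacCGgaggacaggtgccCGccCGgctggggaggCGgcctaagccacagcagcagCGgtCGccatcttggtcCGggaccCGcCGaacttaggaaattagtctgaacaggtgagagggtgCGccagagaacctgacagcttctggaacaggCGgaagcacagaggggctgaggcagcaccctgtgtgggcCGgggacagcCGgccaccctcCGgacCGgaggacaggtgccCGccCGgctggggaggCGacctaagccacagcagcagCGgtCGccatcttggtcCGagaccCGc
Largest rise in neurons, single-copy, chr2:84866241-84866540: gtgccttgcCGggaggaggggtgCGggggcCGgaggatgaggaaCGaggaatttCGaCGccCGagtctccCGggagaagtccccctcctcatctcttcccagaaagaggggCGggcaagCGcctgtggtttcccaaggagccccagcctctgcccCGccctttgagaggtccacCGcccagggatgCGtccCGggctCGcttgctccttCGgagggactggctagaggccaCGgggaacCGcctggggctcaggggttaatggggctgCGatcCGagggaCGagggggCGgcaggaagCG
Largest fall in neurons, family D, chr11:120321152-120321451: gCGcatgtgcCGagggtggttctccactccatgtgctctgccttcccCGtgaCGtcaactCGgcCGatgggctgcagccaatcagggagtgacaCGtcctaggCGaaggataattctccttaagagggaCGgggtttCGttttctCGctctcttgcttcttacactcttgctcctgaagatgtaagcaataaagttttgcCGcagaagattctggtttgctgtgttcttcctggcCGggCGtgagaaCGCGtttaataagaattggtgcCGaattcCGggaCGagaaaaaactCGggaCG
Highest in Tet/Tet neurons, family D, chr14:92049691-92049910: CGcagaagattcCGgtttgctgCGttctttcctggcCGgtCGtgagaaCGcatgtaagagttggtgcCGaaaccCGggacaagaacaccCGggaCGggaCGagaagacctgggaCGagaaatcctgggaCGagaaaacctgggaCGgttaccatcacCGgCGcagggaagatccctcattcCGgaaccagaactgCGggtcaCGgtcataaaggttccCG
Low in every library, single-copy, chr5:52115670-52115969: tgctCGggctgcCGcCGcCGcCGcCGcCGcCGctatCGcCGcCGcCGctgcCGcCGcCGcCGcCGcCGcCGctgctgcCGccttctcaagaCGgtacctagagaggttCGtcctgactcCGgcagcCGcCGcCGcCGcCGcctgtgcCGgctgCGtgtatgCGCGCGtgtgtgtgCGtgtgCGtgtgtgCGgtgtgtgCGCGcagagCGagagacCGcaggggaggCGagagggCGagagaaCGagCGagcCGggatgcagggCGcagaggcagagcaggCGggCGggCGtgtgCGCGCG

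In RRBS, DNA is cut with MspI at CCGG, so that CpG-rich fragments are enriched, and bisulfite turns unmethylated cytosines into bases read as thymine. The deposited tables give for each CpG the percent of reads that kept a cytosine, and no read totals, so the depth behind a site is unknown and every site counted equally. The 1917 islands held 29384 shared sites, 41.2% of their CpGs, with a median of 11 per island. Library codes place the ESCs and the neurons in different sequencing projects, so project and cell type cannot be told apart. For the neurons the labels give a column kit for DNA extraction, whereas the methods of the study give phenol and chloroform for every sample, so whether extraction also differed is not known. Each Tet/Tet library shares its project with the R1 library of the same cell type. No expression was measured in these tables, so the identity and purity of the neurons were not checked. For Tet/Tet neurons, values on chromosomes 8 and 9, on most of 7 and on nearly all of 10 were not used here, which leaves out 887 of the 6011 intergenic islands.

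The label of intergenic held for GENCODE by construction and was checked against RefSeq genes of the same build. Of the 466 islands with under 10% repeat-masked bases, 97 had the start of a RefSeq gene within 1 kb, 48 more overlapped a RefSeq gene, and 321 did neither. Of the 1285 islands with at least 90% masked bases, the numbers were 9, 83 and 1193. The word intergenic therefore holds for the GENCODE annotation, and less so for the single-copy islands under RefSeq.

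Intergenic islands were partly methylated in ESCs, largely methylated in R1 neurons and lowly methylated in Tet/Tet neurons. Their median level was 23.1% in R1 and 23.3% in Tet/Tet ESCs, and 84.2% in R1 and 18.6% in Tet/Tet neurons. The lower and upper quartiles were 6.52% and 45.7% in R1 ESCs. They were 5.82% and 52.3% in Tet/Tet ESCs. In R1 neurons they were 50% and 91.8%, and 5.74% and 27.2% in those of the Tet/Tet line. Both ESC libraries thus had nearly the same quartile range, and the upper quartile of Tet/Tet neurons lay below the lower quartile of R1 neurons. Single islands ran from 0% to 100% in R1 ESCs and over the same range in Tet/Tet neurons. The median over islands of the SD among sites of one island was 15.2 percentage points in R1 and 14.96 percentage points in Tet/Tet ESCs, and 10.9 percentage points in R1 and 12.9 percentage points in Tet/Tet neurons. Islands at promoters had median levels of 1.92%, 2.08%, 2.86% and 2.24% in the same order, and islands inside genes 4.24%, 3.38%, 25.5% and 4.89%. Intergenic islands were therefore above both other classes at the median in every library, by values for which no test was made. Among islands with under 10% repeat-masked bases, given below, those inside genes were above the intergenic ones at the median in every library.

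Shares of islands at each end of the scale show the same order. The share of islands under 10% methylation was 29.99% in R1 and 29.99% in Tet/Tet ESCs, and 15.96% in R1 and 30.7% in Tet/Tet neurons. The share at 80% or more was 6.21% in R1 and 9.29% in Tet/Tet ESCs, and 58.998% in R1 and 0.417% in Tet/Tet neurons. In numbers, 1131 islands reached 80% in R1 neurons and 8 did in Tet/Tet neurons. The share between 10% and 50% was 47.4% in R1 and 44.1% in Tet/Tet ESCs, and 8.97% in R1 and 65.1% in Tet/Tet neurons. Partial methylation was thus the most frequent state of these islands in both ESC libraries and in Tet/Tet neurons.

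**Figure D1:**
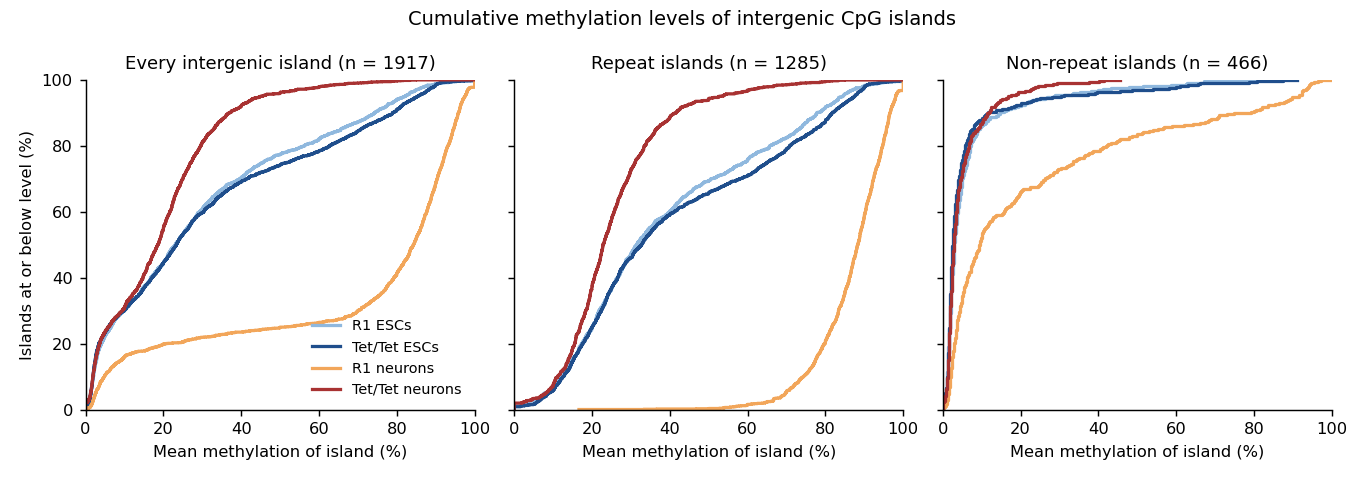
Percent of islands (vertical axis) at or below a given mean methylation in percent (horizontal axis), with one line for each of the 4 libraries, for every intergenic island, for repeat islands and for non-repeat islands. The R1 neuron line of repeat islands lies far to the right of the other lines, with a median of 88.3%, whereas among non-repeat islands all lines start near 0 and the R1 neuron line leaves the others, with a median of 9.46%.

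When each island was placed as low (under 20%), middle or high (80% or more) in every library, the most frequent combination was middle in both ESC libraries, high in R1 neurons and middle in Tet/Tet neurons, with 432 islands or 22.5%. Low in every library were 379 islands (19.8%). Middle in both ESC libraries, high in R1 neurons and low in Tet/Tet neurons were 185, and low in all but R1 neurons, where they were middle, were 177. A further 99 were low in ESCs, high in R1 neurons and low in Tet/Tet neurons. For comparison, 90.5% of promoter islands and 47.3% of gene body islands were low in every library.

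Repeat islands had higher median levels than non-repeat islands in every library. Repeat islands are those with at least 90% of their bases in lower case in the reference, where lower case marks interspersed repeats and simple sequence, and non-repeat islands those with under 10%. The 1285 repeat islands had median levels of 31.5% in R1 and 32.7% in Tet/Tet ESCs, and 88.3% in R1 and 22.9% in Tet/Tet neurons. The 466 non-repeat islands had median levels of 2.99% in R1 and 2.55% in Tet/Tet ESCs, and 9.46% in R1 and 2.88% in Tet/Tet neurons. The 166 islands in between had medians of 7.77%, 7.24%, 46.2% and 6.49% in the same order. In R1 neurons 79.5% of repeat islands and 9.66% of non-repeat islands reached 80%, and no repeat island was under 10%. Non-repeat islands under 10% made up 86.1% in R1 and 87.98% in Tet/Tet ESCs, and 52.1% in R1 and 86.9% in Tet/Tet neurons. Repeat islands inside genes, 449 of 2768 gene body islands, had medians of 29.2%, 28.6%, 87.8% and 23.996%, close to those of the intergenic repeat islands, while non-repeat islands inside genes had 3.395%, 2.74%, 14.1% and 3.68%. The masked share differed between the classes, with a median of 100% in intergenic islands, 3.13% in promoter islands and 3.16% in gene body islands. Reads from near-identical copies may be assigned to the wrong copy or be discarded by the mapping, and the part of this in the levels of repeat islands was not tested.

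The 6 large families held 68.3% of the intergenic islands, and 1266 of the 1285 repeat islands. The rest were 541 islands that shared too few words with any other and 66 islands in small families of at most 9 members. No repeat names were given with the reference, so the families carry letters only. Levels in ESCs separated families A and B from D and F. Family A, with 444 islands, had medians of 21.7% in R1 and 22.01% in Tet/Tet ESCs, and 84.01% in R1 and 23.2% in Tet/Tet neurons. Family B, with 328, had 25.3% in R1 and 25.8% in Tet/Tet ESCs, and 89.2% in R1 and 21.97% in Tet/Tet neurons. Both were thus lowly methylated in each library but R1 neurons. Family C, with 243, had 44.8% in R1 and 49.4% in Tet/Tet ESCs, and 86.8% in R1 and 21.6% in Tet/Tet neurons. Family D, with 140, had 77.3% in R1 and 82.03% in Tet/Tet ESCs, and 95.3% in R1 and 30.8% in Tet/Tet neurons. Family E, with 81, had 60.3% in R1 and 67.2% in Tet/Tet ESCs, and 95.3% in R1 and 23.2% in Tet/Tet neurons. Family F, with 74, had 79.4% in R1 and 82.4% in Tet/Tet ESCs, and 95.5% in R1 and 22.24% in Tet/Tet neurons. The medians of D and F in R1 ESCs were over 50 percentage points above those of A and B, and their quartile ranges did not overlap those of A and B. In Tet/Tet neurons the medians of all 6 families lay between 21.6% and 30.8%. Family D was the highest there, with an upper quartile of 49.7%, and its SD among sites of one island had a median of 24.3 percentage points, against 4.18 in R1 neurons.

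**Figure D2:**
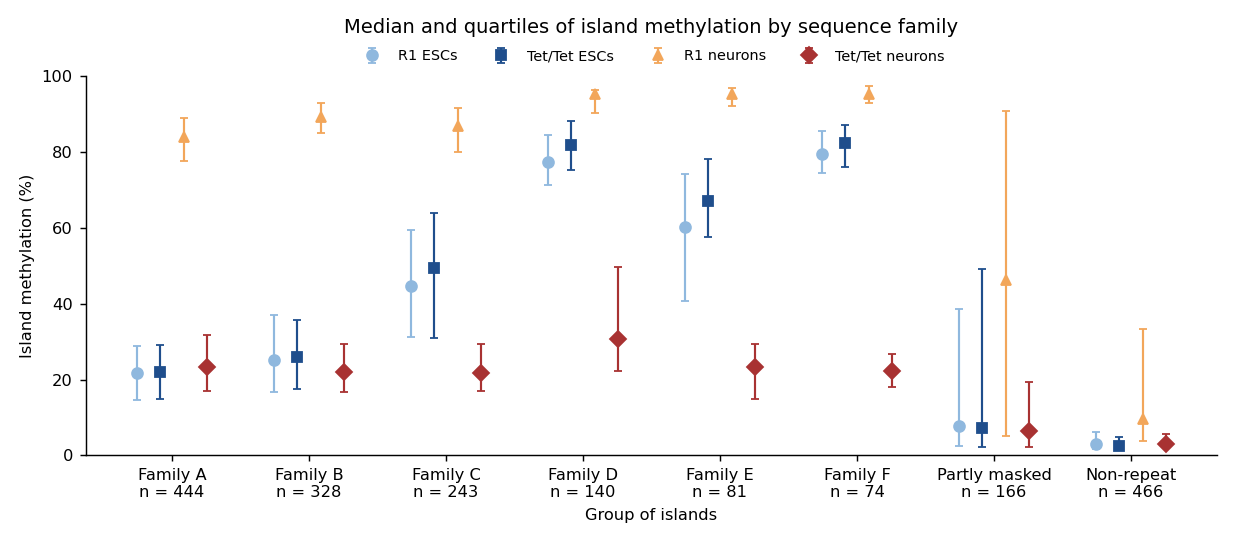
Median methylation in percent (points) with lower and upper quartiles over islands (bars) for the 6 large families, partly masked and non-repeat islands, by library. In R1 neurons every family median lies at 84.01% or higher, and in Tet/Tet neurons no family median lies above 30.8%, whatever the level in ESCs.

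Copies of the same families that lie within genes or at promoters had like levels. The 184 genic islands that share words with family A had medians of 20.4%, 21.1%, 83.3% and 23.98%, with the libraries ordered as above, and the 40 that share words with family D had 76.5%, 79.9%, 94.8% and 35.5%. Those of family F numbered 29 and had 78.4%, 80.9%, 95.9% and 20%. Each of these medians was within 10 percentage points of that of the intergenic members. The families are spread over the genome, from 16 chromosomes for E and F to 19 for A and C.

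The families differ in build. Families A, B and C are tandem repeats in part. In 362 of the 444 islands of family A the sequence matched itself at over 80% of bases when shifted, most often by 212 or 214 bp, and the median identity was 95.7%. In family B this held for 229 of 328 islands, most often at 208 bp, with a median identity of 97.4%. In family C it held for 108 of 243, with 37 at 204 bp. Shifts of 20 bp to under 500 bp were tried, only shorter ones in short islands. The match was taken over all bases where an island and its shifted copy overlap, a short stretch where the shift nears the island length. No island of D, E or F matched itself this way, but the shifts most often found in A, B and C were too long to be tried in the shortest islands. Repeats of shorter units or of only part of an island were not searched for. Short stretches do recur in the printed sequences of D and F. The longer unit can be seen in the printed sequence of family A, which begins to repeat near its end. The median GC content was 66.4% in A, 63.6% in B, 66.5% in C, 55.5% in D, 54.2% in E and 56.9% in F. The observed over expected CpG ratio ran the other way, with medians of 0.653, 0.6897, 0.718, 1.08, 1.03 and 0.969. Families A, B and C thus had lower ratios than D, E and F, and lower median levels in both ESC libraries. Over the 1285 repeat islands Spearman's rho between that ratio and the level was 0.59 in R1 and 0.61 in Tet/Tet ESCs, and 0.37 in R1 and 0.09 in Tet/Tet neurons. These coefficients describe islands that share sequence and libraries and carry no test.

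Short motifs were counted on both strands of the 300-base windows of islands of at least 300 bp. GGGCGG, the core of the GC box bound by SP1 family factors, occurred in 54.2% of intergenic windows, in 73.2% of the windows of all islands, in 80.9% of family A and in 0.402% of family B. TATAAA, the letters of the TATA box, occurred in 88.1% of family E windows and in 1.95% of all. TGACGTCA, the palindromic CRE bound by CREB and ATF factors, occurred in 12.8% of family D and in 1.83% of all windows. CACGTG, the E-box, occurred in 10.7% of non-repeat and 0.108% of repeat intergenic windows. CCGG, the MspI site that every RRBS fragment ends in, was in 99.1% and CGCG in 73.7% of intergenic windows. CCGG and CGCG cannot overlap each other, whereas GGGCGG can overlap CCGG and TGACGTCA can overlap CACGTG. Each match is a string of letters and not a site shown to be bound.

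Single CpGs that recur in many copies of a family had levels of their own. The 20 bases around a CpG were read on either strand, and those found with shared sites in at least 20 islands of a family were kept. Family A had 47 such 20-base sequences, called positions here. Some differ from each other by a single base and can be variants of the same CpG of the repeat unit. Mean levels of the 47 ran from 7.57% to 57.2% in R1 ESCs and from 11.9% to 62.6% in Tet/Tet neurons. All were between 62.4% and 95.1% in R1 neurons. The most and least methylated positions of family A in Tet/Tet neurons and the extremes of family D are shown with the CpG in capitals.
Family A, high: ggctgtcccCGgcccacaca
Family A, low: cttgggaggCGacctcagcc
Family D, high: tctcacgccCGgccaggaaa
Family D, low: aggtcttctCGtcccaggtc
The first, in 45 islands, had a mean of 57.2% in R1 and 50.7% in Tet/Tet ESCs, and 91.1% in R1 and 62.6% in Tet/Tet neurons. The next, in 21 islands, had 13.8% in R1 and 13.8% in Tet/Tet ESCs, and 81.7% in R1 and 11.9% in Tet/Tet neurons. In family D the high position, in 21 islands, had 93.6% in R1 and 93.96% in Tet/Tet ESCs, and 96.9% in R1 and 83.3% in Tet/Tet neurons, and the low one, in 20 islands, had 74.3% in R1 and 81.6% in Tet/Tet ESCs, and 90.7% in R1 and 22.9% in Tet/Tet neurons. Both high positions lie in CCGG and both low ones do not.

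Sites within CCGG had higher levels than other sites of the same class of islands. In repeat islands the mean over CCGG sites was 43.2% in R1 and 43.4% in Tet/Tet ESCs, and 87.9% in R1 and 35.3% in Tet/Tet neurons, and over other sites 35.6% in R1 and 37.5% in Tet/Tet ESCs, and 85.5% in R1 and 21.7% in Tet/Tet neurons. In non-repeat islands it was 10.7% in R1 and 11.2% in Tet/Tet ESCs, and 22.7% in R1 and 10.2% in Tet/Tet neurons over CCGG sites and 3.51% in R1 and 3.19% in Tet/Tet ESCs, and 14.9% in R1 and 2.61% in Tet/Tet neurons over others. The same held at promoter islands, with 8.64% in R1 and 9.56% in Tet/Tet ESCs, and 11.9% in R1 and 9.06% in Tet/Tet neurons against 1.14% in R1 and 1.13% in Tet/Tet ESCs, and 3.96% in R1 and 1.36% in Tet/Tet neurons. CCGG is where MspI cuts and fragment ends are filled in during library making. The part of this in the levels was not tested. Without CCGG sites 1612 islands kept 5 sites, and the median levels were 17.96% in R1 and 17.8% in Tet/Tet ESCs, and 81.6% in R1 and 14.6% in Tet/Tet neurons.

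Tet/Tet ESCs and R1 ESCs had nearly the same level at most intergenic islands, and where they differed Tet/Tet ESCs were more often the higher. The comparison asks whether overexpressed DNMT1 goes with other levels in undifferentiated cells. The median difference, Tet/Tet ESCs minus R1 ESCs, was 0.147 percentage points, with quartiles of -2.37 and 5.36. An island was counted as different at a difference of at least 10 percentage points. Of the 1917 islands 254 (13.2%) were higher and 149 (7.77%) lower in Tet/Tet ESCs, against 3.21% and 1.96% of all 13847 islands. Among repeat islands 219 were higher and 137 lower, and among non-repeat islands 15 and 9. Family E moved most, with a median difference of 9.16 percentage points and 38 of 81 islands higher against 6 lower. In family D the median difference was 4.85 points, in C 2.35, in F 1.54, in B 0.9298 and in A 0.0584. Levels of single islands in the ESC libraries followed each other with a Spearman's rho of 0.91 over the 1917 islands. Within repeat islands it was 0.85 and within non-repeat islands 0.71. Here and below, single islands are named by their nearest protein-coding gene, and a gene of another type can lie closer. The largest rise among islands with at least 10 shared sites was at the printed family E island at chr16:68626454-68626702. It lay 1005546 bp from the start of Cadm2 and 115285 bp from the nearest gene of any type. Its levels over 11 sites were 27.3% in R1 and 81.3% in Tet/Tet ESCs, and 95.2% in R1 and 8.57% in Tet/Tet neurons. The next, 60.6% masked and in no family, lay 176747 bp from the start of Zfp808 and had 20.3% in R1 and 66.5% in Tet/Tet ESCs, and 95.4% in R1 and 8.47% in Tet/Tet neurons. In Tet/Tet ESCs the first thus lay within the quartiles of families D and F, and the second near the median of family E, 67.2%. Both were low in Tet/Tet neurons. Among the same islands the largest fall was at the printed family A island at chr16:69208847-69209357, 647517 bp from the end of Speer2, with 49.9% in R1 and 15.9% in Tet/Tet ESCs, and 79.5% in R1 and 14.2% in Tet/Tet neurons over 12 sites. Family B islands 10252 bp from the end of Olfr59 and 118503 bp from the end of Prlhr followed, with 47.5% and 52.8% in R1 ESCs against 15.5% and 20.9% in the Tet/Tet line. In the islands named by Speer2, Olfr59 and Prlhr 0%, 0.809% and 0% of 32-base words occur only once in the genome. The SD among their sites in R1 ESCs was 39.95, 42.8 and 40.1 percentage points. Whether reads of other copies enter these levels was not tested. Islands with fewer shared sites differed more often, and with at least 10 sites 9.79% were higher and 4.51% lower.

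In neurons most intergenic islands were lower in the Tet/Tet library than in the R1 library. The median difference, Tet/Tet neurons minus R1 neurons, was -58.03 percentage points, with quartiles of -68.99 and -29.2. Of the 1917 islands 1569 (81.8%) were lower by at least 10 points and 0 higher, against 30.9% lower and 0.065% higher over all islands. At promoters 12.5% and within genes 56.2% of islands were lower. Of the repeat islands 1277 of 1285 were lower, of the non-repeat islands 194 of 466. The median difference of repeat islands was -62.9 points and ran over the families from -58.4 in A through -60.98 in D, -64.1 in C, -66.5 in B and -71.5 in F to -72.3 in E. Among islands with at least 10 sites the largest fall was at the printed family D island at chr11:120320946-120321513, 24177 bp from the end of Actg1, a cytoskeletal actin gene. It had 89.5% in R1 and 83.7% in Tet/Tet ESCs, and 98.8% in R1 and 5.77% in Tet/Tet neurons over 13 sites. An island of family E 684441 bp from the start of Pfkp, also the third in order of rise in ESCs, had 25% in R1 and 70% in Tet/Tet ESCs, and 100% in R1 and 10% in Tet/Tet neurons. Another of family E, 256717 bp from the start of Pik3c3, had 83.02% in R1 and 84.4% in Tet/Tet ESCs, and 100% in R1 and 10% in Tet/Tet neurons. Such round levels are means over 10 sites of unknown depth. In the islands named by Actg1, Pfkp and Pik3c3 9.87%, 1.78% and 0% of 32-base words occur only once in the genome. Whether reads of other copies enter their levels was not tested. No island with at least 10 sites rose by 10 points. The largest rise among them, at the printed single-copy island chr2:84866172-84866571 2578 bp from the end of Slc43a1, an amino acid transporter gene, was from 2.51% to 5.65%, and that island had 2.14% and 3.07% in the ESCs of each line. The next, 43594 bp from the end of Chd7, a chromatin remodeller gene, went from 3.35% to 6.27%, and the third, 11093 bp from the start of Cfap126, from 2.86% to 5.34%.

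Few intergenic islands kept a high level in Tet/Tet neurons. Those at 80% or more numbered 8, and 72 lay between 50% and 80%. The highest with at least 10 sites was the printed family D island at chr14:92049691-92049910, 963500 bp from the end of Pcdh9, a protocadherin gene, with 94.1% in R1 and 84.3% in Tet/Tet ESCs, and 86.5% in R1 and 81.7% in Tet/Tet neurons over 14 sites. It stayed within 10 percentage points of R1 neurons, whereas the printed family D island near Actg1 fell from 98.8% to 5.77%. Next came a family A island 351247 bp from the start of Epha7, with 58.8% in R1 and 61.7% in Tet/Tet ESCs, and 93.95% in R1 and 72.5% in Tet/Tet neurons, and a family D island 37624 bp from the end of Rbm43, with 81.5% in R1 and 81.8% in Tet/Tet ESCs, and 96.1% in R1 and 68.97% in Tet/Tet neurons. Within family D levels in Tet/Tet neurons spread from 0% to 84.9%, and 29 of its islands lay between 50% and 80% and 6 above.

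**Figure D3:**
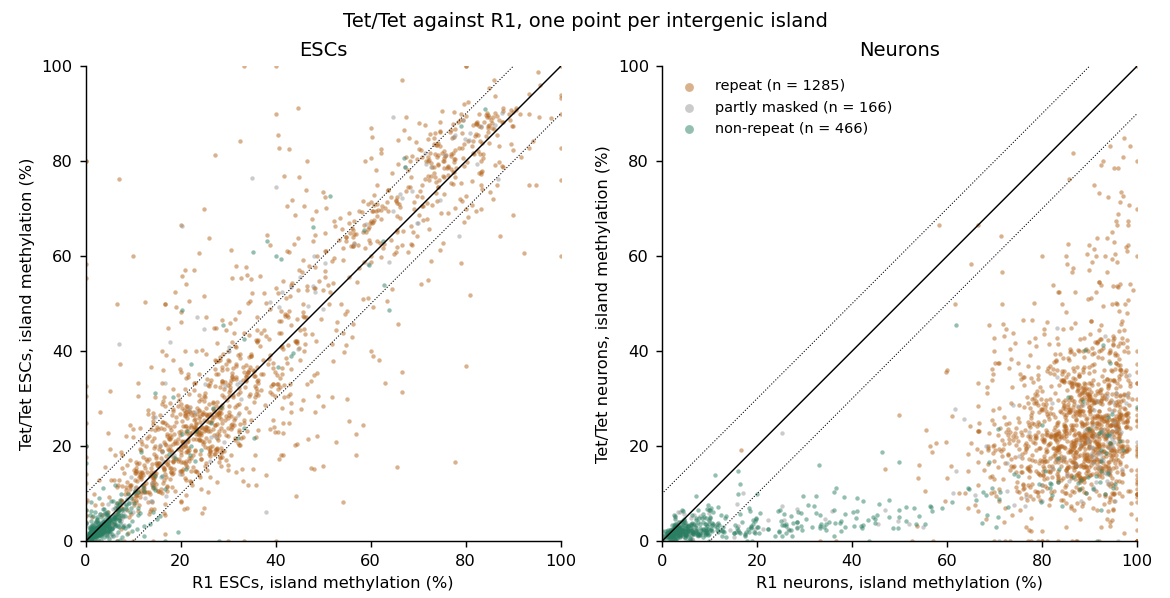
Island methylation in percent in Tet/Tet (vertical axis) against R1 (horizontal axis), for ESCs and neurons, with one point per island and colours for repeat, partly masked and non-repeat islands. The solid line marks equal levels and the dotted lines a difference of 10 percentage points. In ESCs points follow the solid line, and in neurons 1569 of 1917 islands lie at or beyond the lower dotted line.

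Differentiation of R1 cells went with a higher level at most intergenic islands. The median difference, R1 neurons minus R1 ESCs, was 40.5 percentage points, 1501 islands (78.3%) were higher by at least 10 points, and 7 (0.365%) lower, against 30.3% and 0.166% of all islands. Families A and B, low in ESCs, rose most, with median differences of 60.5 and 61.9 points, and 443 of 444 and 325 of 328 islands higher. Families D and F, already high in ESCs, had median differences of 15.3 and 14.3 points. Of the non-repeat islands 189 of 466 were higher and 2 lower. Among islands with at least 10 sites the largest rise was at a single-copy island of 203 bp at chr1:193632701-193632903, 262403 bp from the start of Camk1g, which encodes a calcium/calmodulin-dependent kinase, and it had 2.24% in R1 and 1.98% in Tet/Tet ESCs, and 92.4% in R1 and 6.67% in Tet/Tet neurons. A pair of family B islands followed, one 8231 bp from the end of Hspa13, with 7.098%, 13.02%, 96.5% and 32.8%, and one 3024 bp from the start of Vmn1r204, a vomeronasal receptor gene, with 0%, 8.33%, 88.9% and 22.5% in the same order. Among the 7 islands of any number of sites that were lower in R1 neurons was one at chr1:171102307-171102825, 11093 bp from the start of Cfap126, where RefSeq places tRNA genes for aspartate, glutamate and glycine, and which shares words with family B though only 8.29% of it is masked. It had 15.7% in R1 and 5.42% in Tet/Tet ESCs, and 2.86% in R1 and 5.34% in Tet/Tet neurons over 21 sites. A family F island 331721 bp from the start of Cobl had 81.2% in R1 and 70.9% in Tet/Tet ESCs, and 68.7% in R1 and 20% in Tet/Tet neurons. One at chr17:23546429-23547146, 9621 bp from the end of Zfp213, has RefSeq tRNA gene starts for lysine and proline within 1 kb and had 12.3% in R1 and 1.15% in Tet/Tet ESCs, and 4.405% in R1 and 2.35% in Tet/Tet neurons, a difference under 10 points. These libraries differ in sequencing project as well as in cell type.

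Between the Tet/Tet libraries the change ran the other way in the more methylated families. The median difference, Tet/Tet neurons minus Tet/Tet ESCs, was -1.67 percentage points. Higher by at least 10 points were 178 islands (9.29%) and lower 687 (35.8%), against 3.53% and 7.84% of all islands. Family A had a median difference of 2.15 points with 98 islands higher and 60 lower, and family B -2.84 with 54 and 109. In family C it was -26.6, in D -48.4, in E -43.98 and in F -59.6, with every one of the 74 islands of F lower. Non-repeat islands had a median difference of 0.0743, with 7 higher and 29 lower. Each comparison shares a library with another, so their counts are not independent of each other.

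By Spearman's rho, the level of repeat islands tended to fall with length in each library but Tet/Tet neurons, most in ESCs. That of non-repeat islands tended to fall with length in every library, most in R1 neurons. Over all 1917 islands, whose median length was 368 bp, the 598 islands of up to 300 bp had median levels of 30.2% in R1 and 33.1% in Tet/Tet ESCs, and 87.1% in R1 and 18.05% in Tet/Tet neurons. Those of over 300 and up to 500 bp, 717 in number, had 24.6%, 24.8%, 84.6% and 18.4% in the same order, those up to 1000 bp, 502, had 18.7%, 18.4%, 80.3% and 18.9%, and the 100 longer ones 17.2%, 17.6%, 84.5% and 20.1%. Among repeat islands the median in R1 ESCs fell from 50.4% in the shortest through 33.3% and 24.7% to 21.2% in the longest, while Tet/Tet neurons stayed between 22.6% and 23.6%. Family and length are linked, since the median length was 434 bp in A and 268 bp in F. Non-repeat islands had medians in R1 neurons of 19.5%, 10%, 5.33% and 5.42% from the shortest to the longest class, the last with 14 islands, and of at most 3.56% in the other libraries. Spearman's rho between length and level over all islands was -0.17 in R1 and -0.19 in Tet/Tet ESCs, and -0.13 in R1 and 0.02 in Tet/Tet neurons. Within repeat islands it was -0.32 in R1 and -0.36 in Tet/Tet ESCs, and -0.21 in R1 and 0.04 in Tet/Tet neurons, and within non-repeat islands -0.14 in R1 and -0.13 in Tet/Tet ESCs, and -0.24 in R1 and -0.19 in Tet/Tet neurons. The longest island with at least 10 sites, 5921 bp of family B at chr3:6298167-6304087, had 13.7% in R1 and 13.7% in Tet/Tet ESCs, and 89.8% in R1 and 19.8% in Tet/Tet neurons over 46 sites. The next among islands with at least 10 sites, of 5122 bp 171306 bp from the end of Gpr158, had 7.39%, 8.51%, 88.8% and 21.96%, and one of 4880 bp 4330 bp from the start of 9130204L05Rik had 21.1%, 34.4%, 88.5% and 31.2%.

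Islands under 5 kb from a gene had lower median levels in every library than those farther away, and fewer of them were repeat islands. The 384 islands under 5 kb from the nearest gene edge had medians of 4.82% in R1 and 3.88% in Tet/Tet ESCs, and 25.4% in R1 and 4.26% in Tet/Tet neurons. At 5 to 20 kb (645 islands) the medians were 23.1%, 23.4%, 83.3% and 18.2%, at 20 to 100 kb (703) 27.8%, 28.4%, 87.03% and 21.4%, and at 100 kb or more (185) 30.2%, 29.7%, 89.2% and 20.7%. Repeat islands made up 122 of the 384 nearest and 170 of the 185 farthest islands. Within repeat islands the median in R1 ESCs was 34.7%, 32.4%, 30.3% and 30.7% from near to far, and in R1 neurons 88.1%, 88.95%, 87.8% and 89.3%, with no order by distance. Among non-repeat islands R1 neurons rose from 7.09% through 10.4% to 17.001% and to 61.1% in the 7 farthest, a class too small to lean on. Spearman's rho between distance and level was 0.31 in R1 and 0.32 in Tet/Tet ESCs, and 0.36 in R1 and 0.32 in Tet/Tet neurons over all islands, -0.06 in R1 and -0.06 in Tet/Tet ESCs, and 0.01 in R1 and -0.05 in Tet/Tet neurons over repeat islands and 0.13 in R1 and 0.14 in Tet/Tet ESCs, and 0.18 in R1 and 0.12 in Tet/Tet neurons over non-repeat islands. Where the nearest gene edge was a start (875 islands) the medians were 24.1%, 23.7%, 85.5% and 19.2%, and where it was an end (1042) 22.01%, 22.7%, 83.3% and 17.9%. The most distant island with at least 10 sites, of family A at chr1:114557304-114558010 and 593170 bp from any gene, had 28.8% in R1 and 17.8% in Tet/Tet ESCs, and 65.96% in R1 and 7.77% in Tet/Tet neurons. Of the next farthest, whose nearest protein-coding gene was Pom121l12, one of family B had 39.8%, 30.7%, 90.7% and 23.5% and one of family A 32.9%, 15.2%, 88.4% and 28.8%.

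**Figure D4:**
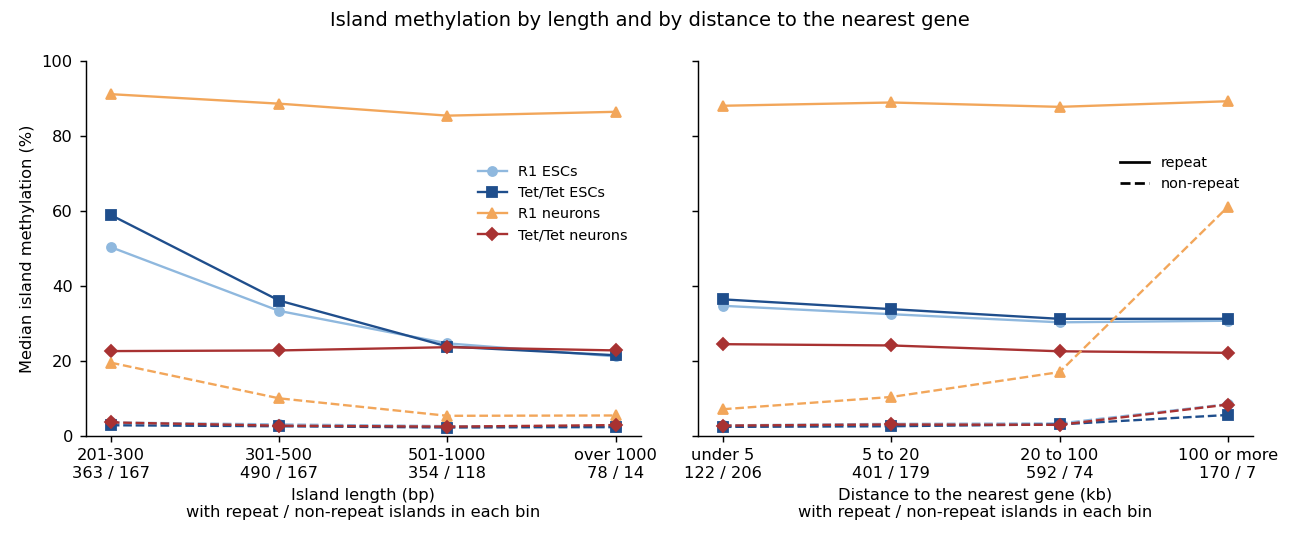
Median island methylation in percent (vertical axis) by island length in bp and by distance to the nearest gene in kb (horizontal axes), for repeat islands (solid lines) and non-repeat islands (dashed lines) in each library. Repeat islands lose level with length in both ESC libraries and show little change with distance, and the rise of the R1 neuron line of non-repeat islands at the farthest distance rests on 7 islands.

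Sites around the islands were read where they lay outside genes. In non-repeat islands the mean in R1 neurons was 12.1% in the interior, 21.5% in the outer 100 bp, 36.04% up to 500 bp outside and 50.3% up to 2000 bp. In R1 ESCs the same steps were 3.81%, 6.04%, 9.69% and 19.8%, and for ESCs of the Tet/Tet line 3.68%, 5.81%, 9.36% and 19.3%. In Tet/Tet neurons they were 3.53%, 4.55%, 6.75% and 8.94%. Levels thus rose outward in each library, least in Tet/Tet neurons. Around repeat islands R1 neurons had 84.97%, 87.1%, 87.4% and 90.2% from the interior outward. R1 ESCs had 33.1%, 41.2%, 36.3% and 65.3%, and the Tet/Tet line as ESCs 33.6%, 43.7%, 37.6% and 69.02%. Tet/Tet neurons had 25.1%, 25.1%, 22.6% and 21.1%. In both ESC libraries the farthest sites were thus the highest, though the first 500 bp outside lay below the outer 100 bp inside. The outside values of repeat islands beyond 500 bp rest on 761 sites, and those of non-repeat islands on 2601.

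**Figure D5:**
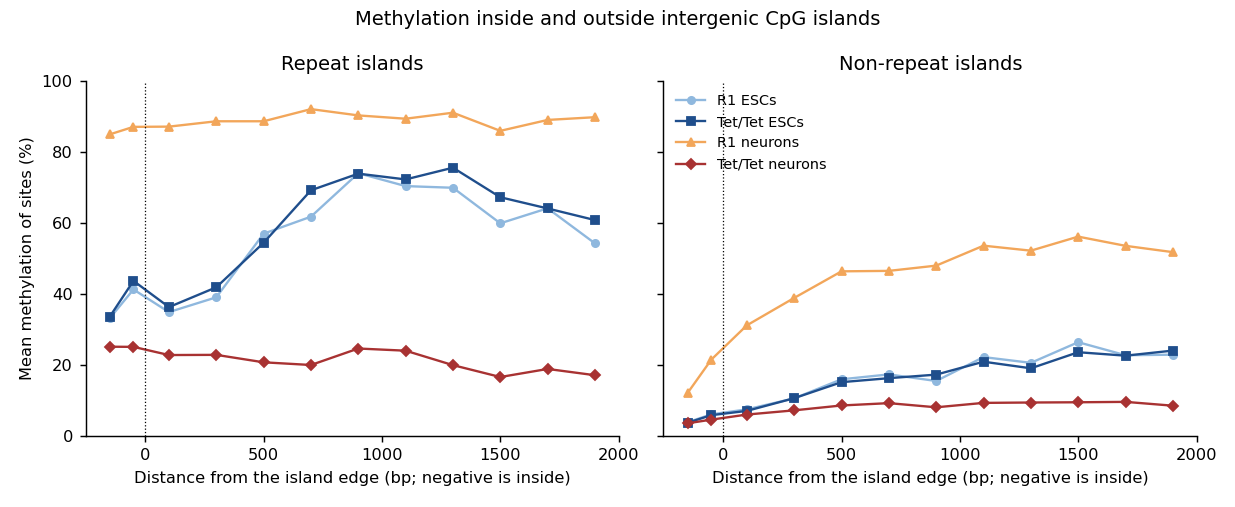
Mean methylation in percent of shared sites (vertical axis) by distance from the nearest island edge in bp (horizontal axis, negative inside, dotted line at the edge), for repeat and non-repeat islands in each library. The R1 neuron line of non-repeat islands climbs from 12.1% in the interior and the ESC lines of repeat islands are highest beyond 500 bp, with means of 65.3% and 69.02%, whereas both Tet/Tet neuron lines stay low.

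Intergenic islands under 20% in every library were mostly of non-repeat sequence, which made up 306 of 379. Of 1154 islands with at least 10 sites, 277 were under 10% in all 4 libraries. The one with most sites was the printed island, part of chr5:52112979-52116256 with 207 sites. It lay 33947 bp from the end of Dhx15 in GENCODE but at a RefSeq start of Ppargc1a, a coactivator of mitochondrial genes. GENCODE also places the start of a lincRNA gene 1056 bp away. With 18.7% of its bases masked the island is above the limit for non-repeat islands. Its levels were 2.46% in R1 and 2.98% in Tet/Tet ESCs, and 3.47% in R1 and 2.302% in Tet/Tet neurons. The next was an island with 133 sites 19411 bp from the start of Pax3, a regulator of neural crest and muscle precursors. RefSeq places the start of Gm2102 within 1 kb of it, and its levels were 2.297%, 2.51%, 3.33% and 3.43%. Then came one with 127 sites 32690 bp from the end of Rps6ka1, a ribosomal S6 kinase gene. RefSeq places the start of Gm34296 within 1 kb of it, and GENCODE the start of a lincRNA gene at 1820 bp. Its levels were 2.12%, 2.08%, 2.41% and 1.99%. The 97 non-repeat islands with a RefSeq start within 1 kb had medians of 2.64%, 2.47%, 6.32% and 2.49%, and the 321 with no RefSeq gene had 3.03%, 2.53%, 9.88% and 3.01%. Islands with and without an annotated start thus differed little at the median except in R1 neurons.

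Islands were also grouped by their nearest protein-coding gene. Those nearest to developmental transcription factors numbered 138 and had medians of 4.54% in R1 and 3.61% in Tet/Tet ESCs, and 10.2% in R1 and 3.33% in Tet/Tet neurons. Their 85 non-repeat members had 3.61%, 2.77%, 7.15% and 2.69%, with 24 higher in R1 neurons than in R1 ESCs and 26 lower in Tet/Tet than in R1 neurons. Over all non-repeat intergenic islands these counts were 189 and 194 of 466, and over all islands the shares were 30.3% and 30.9%, so the group stood at or below the background. Besides the island near Pax3, one 873 bp from the end of Otx1, a forebrain homeobox gene, had 2.56%, 1.51%, 6.24% and 3.62% over 89 sites, and one 2464 bp from the start of Prdm13, a neural zinc finger gene, 1.48%, 1.91%, 2.03% and 1.86% over 81. Islands nearest to olfactory and vomeronasal receptor genes, the receptors of smell and pheromones, numbered 69, of which 2 were non-repeat, and had medians of 32.3%, 27.6%, 85.2% and 21.8%. The 3 with most sites, near Vmn1r230, Olfr1458 and Olfr1555-ps1, were of family C, with 65.01%, 60.6% and 65.4% in R1 ESCs and 18.9%, 19.6% and 29.8% in Tet/Tet neurons. Islands nearest to neuronal genes, such as ion channels, adhesion and guidance molecules, numbered 107 and had medians of 30.9%, 34.8%, 88.8% and 22.02%, and their 10 non-repeat members 4.67%, 3.35%, 19.4% and 3.55%. One 67706 bp from the end of Efnb1, a ligand of Eph receptors, had 2.31%, 1.67%, 8.73% and 1.94%, one 73652 bp from the end of Kcnrg 2.63%, 1.32%, 11.6% and 3.78%, and a family A island 142616 bp from the end of Pcdh10 18.2%, 26.5%, 87.1% and 20.9%. Those nearest to Zfp genes numbered 26, with medians of 13.3%, 20.3%, 79.6% and 14.4%, and the 3 with most sites, near Zfp239, Zfp395 and Zfp292, had at most 2.54% in any library. Of 6 islands nearest to imprinted genes 1 was non-repeat. It lay 6400 bp from the start of Trappc9 and had 1.105%, 0.455%, 0.529% and 0.608%, while 2 near Cobl, of families B and C, had 15.5%, 16.4%, 94.9% and 17.1% and 72.7%, 78.8%, 93.4% and 43.3%. The 3 islands nearest to germline genes had medians of 82.1%, 81.5%, 95.6% and 24.7%. The lists differ in their share of repeat islands, and their part in these medians was not separated from that of the genes.

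On the X chromosome 172 islands had medians of 24.6%, 27.2%, 87.1% and 19.3% in the same order of libraries, on the Y chromosome 42 had 40.8%, 45.2%, 88.5% and 21.4%, and 1703 on autosomes had 22.5%, 22.7%, 83.4% and 18.4%. Among repeat islands alone the medians were 27.8%, 28.6%, 87.6% and 21.6% on X, 43.05%, 42.6%, 88.2% and 21.8% on Y and 31.7%, 32.9%, 88.4% and 23.2% on autosomes.

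Values at the limits of the rule are given for description. Islands with 4 shared sites (158) had medians of 37.4%, 48.6%, 92.3% and 20.2%, and those with 5 (206) 32.2%, 36.8%, 91.3% and 20%. Islands over 500 and up to 1000 bp from a gene start and outside genes (45) had 4.07%, 2.998%, 22.24% and 3.902%, and those over 1000 and up to 1500 bp away (30) 17.8%, 8.55%, 57.1% and 7.43%. The 136 islands of 220 bp or less had 40.5%, 50.4%, 89.8% and 18.2%.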

How the data were processed

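Genomic DNA of ESCs and neurons of the R1 and Tet/Tet lines was examined by RRBS, with 1 library for each of the 4 conditions. The authors trimmed adapters with Trim Galore 0.6.4, mapped reads to mm10 with Bismark 0.19.0, called CpGs with MethylDackel 0.3.0 and deposited, for each CpG, the percent of reads that kept a cytosine. The design allowed for read totals, which the tables do not hold, so levels are unweighted means and no read minimum was applied. Correspondingly, the values have no interval for counting error.

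Islands were called in Python (version 3.11.15, with numba 0.67.0 and numpy 2.4.6) on the mm10 sequence as stretches of maximal score, with +17 for a CpG and -1 for any other base, and then filtered by length, GC content and CpG ratio. Families are islands linked by at least 10 shared words of 32 bases that occur more than once in the genome, and families of at least 50 islands were lettered. The island caller was tested on simulated data. Correlations were computed with scipy 1.17.1. The islands named are the 3 with the largest rise and fall in each of R1 to Tet/Tet in ESCs, the same in neurons, and R1 ESCs to R1 neurons, the 3 highest in Tet/Tet neurons, the 3 with most sites under 10% in all libraries, the 3 longest, the 3 farthest from genes and the 3 with most sites in each gene list of at least 3 islands, all with at least 10 shared sites. Each is placed by its nearest protein-coding gene, whereas the distance classes use the nearest gene of any type. The islands, lists and tests were chosen with earlier results of these data known.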

Additional observations from a re-analysis of the deposited data

Results flagged for a closer look

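At the median Tet/Tet cells were above R1 cells as ESCs and below them as neurons, and this change of sign marked these values for a closer look. Over every intergenic island the difference in ESCs was 0.147 points, and its sign was lost with at least 10 sites per island (-0.0202), with islands of at most 10% masked bases (-0.2595), with islands of single-copy words (-0.267) and with the median of sites (0). The median difference in neurons minus that in ESCs was -58.2 percentage points over every intergenic island and -64.4 over repeat islands. By family it was -58.4 in A, -67.4 in B, -66.4 in C, -65.8 in D, -81.5 in E and -73.1 in F. In ESCs the medians themselves were small, from 0.0584 points in A to 9.16 in E. With 1 library per condition these differences between cell types were not tested, and cell type cannot be told apart from sequencing project.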

How the results depend on the processing

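Levels rest on 5 or more sites of unknown depth, and on 1 library per condition, and repeat islands make up 67.03% of the islands behind each value given over every island. No paired analysis was possible because each condition has 1 library. The fall in neurons and the rise from R1 ESCs to R1 neurons kept their sign under every setting tried, and the median difference in ESCs, near 0, did not. Restricting the chromosomes to autosomes and measuring distance to protein-coding genes moved no value past its limit. Values that moved are given by setting, where a median moved when it left the 95% binomial interval over islands, a share when it changed over 1.5 times and a rho by over 0.1. The causes were not tested, except that the first setting below leaves out every repeat island by definition and the second leaves out most of them.

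With islands of at most 10% masked bases (467 islands) the medians in ESCs and between Tet/Tet libraries and the rho with length in Tet/Tet neurons changed sign. Median levels were 2.99% in R1 and 2.55% in Tet/Tet ESCs, and 9.41% in R1 and 2.88% in Tet/Tet neurons. Under 10% lay 86.1% for R1 ESCs, 88.01% for Tet/Tet ESCs, 52.2% for R1 neurons, and 86.9% for Tet/Tet neurons. At 80% or more lay 0.214% for R1 ESCs, 0.642% for Tet/Tet ESCs, 9.64% for R1 neurons, and 0% for Tet/Tet neurons. Median differences in points were -0.2595 for Tet/Tet ESCs minus R1 ESCs, -6.25 for Tet/Tet neurons minus R1 neurons, 5.39 for R1 neurons minus R1 ESCs, and 0.0758 for Tet/Tet neurons minus Tet/Tet ESCs. Higher by at least 10 points were 3.21% for Tet/Tet ESCs minus R1 ESCs, 40.5% for R1 neurons minus R1 ESCs, and 1.499% for Tet/Tet neurons minus Tet/Tet ESCs. Lower were 1.93% for Tet/Tet ESCs minus R1 ESCs, 41.5% for Tet/Tet neurons minus R1 neurons, and 6.21% for Tet/Tet neurons minus Tet/Tet ESCs. Spearman's correlation coefficient with island length was -0.24 for R1 neurons, and -0.19 for Tet/Tet neurons. Spearman's correlation coefficient with distance to the nearest gene was 0.13 for R1 ESCs, 0.14 for Tet/Tet ESCs, 0.18 for R1 neurons, and 0.12 for Tet/Tet neurons.

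With islands of which at least 90% of words occur once (510) the same medians changed sign. Median levels were 2.91% in R1 and 2.49% in Tet/Tet ESCs, and 8.44% in R1 and 2.76% in Tet/Tet neurons. Under 10% lay 88.6% for R1 ESCs, 90.6% for Tet/Tet ESCs, 55.7% for R1 neurons, and 89.2% for Tet/Tet neurons. At 80% or more lay 0% for R1 ESCs, 0.196% for Tet/Tet ESCs, 7.84% for R1 neurons, and 0% for Tet/Tet neurons. Median differences in points were -0.267 for Tet/Tet ESCs minus R1 ESCs, -5.22 for Tet/Tet neurons minus R1 neurons, 4.599 for R1 neurons minus R1 ESCs, and 0.0743 for Tet/Tet neurons minus Tet/Tet ESCs. Higher by at least 10 points were 2.55% for Tet/Tet ESCs minus R1 ESCs, 36.9% for R1 neurons minus R1 ESCs, and 1.18% for Tet/Tet neurons minus Tet/Tet ESCs. Lower were 1.37% for Tet/Tet ESCs minus R1 ESCs, 38.2% for Tet/Tet neurons minus R1 neurons, 0.196% for R1 neurons minus R1 ESCs, and 4.71% for Tet/Tet neurons minus Tet/Tet ESCs.

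With at least 10 sites (1154) the median in ESCs changed sign. Median levels were 17.8% in R1 and 17.7% in Tet/Tet ESCs, and 79.2% in R1 and 16.2% in Tet/Tet neurons. Under 10% lay 24.4% for R1 neurons. At 80% or more lay 2.69% for R1 ESCs, 4.77% for Tet/Tet ESCs, and 0.0867% for Tet/Tet neurons. Median differences in points were -0.0202 for Tet/Tet ESCs minus R1 ESCs, -52.2 for Tet/Tet neurons minus R1 neurons, 36.1 for R1 neurons minus R1 ESCs, and -0.383 for Tet/Tet neurons minus Tet/Tet ESCs. Lower were 4.51% for Tet/Tet ESCs minus R1 ESCs, and 0.173% for R1 neurons minus R1 ESCs. Spearman's correlation coefficient with distance to the nearest gene was 0.42 for R1 ESCs, 0.43 for Tet/Tet ESCs, and 0.42 for Tet/Tet neurons.

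With sites inside MspI fragments of 40 to 220 bp (1553 islands) fewer islands were at the upper end. Median levels were 19.3% in R1 and 18.8% in Tet/Tet ESCs, and 82.6% in R1 and 16.6% in Tet/Tet neurons. At 80% or more lay 3.93% for R1 ESCs, 5.86% for Tet/Tet ESCs, and 0.258% for Tet/Tet neurons. Differences had medians in points of 45.99 for R1 neurons minus R1 ESCs, and -0.466 for Tet/Tet neurons minus Tet/Tet ESCs. Higher by at least 10 points were 0.0644% for Tet/Tet neurons minus R1 neurons.

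With the median of the sites of an island in place of the mean, levels moved toward the ends. Median levels were 15.2% in R1 and 16.5% in Tet/Tet ESCs, and 90.003% in R1 and 14.2% in Tet/Tet neurons. At 80% or more lay 0.887% for Tet/Tet neurons. Differences had medians in points of 0 for Tet/Tet ESCs minus R1 ESCs, -69.9 for Tet/Tet neurons minus R1 neurons, 46.8 for R1 neurons minus R1 ESCs, and -0.708 for Tet/Tet neurons minus Tet/Tet ESCs. Higher by at least 10 points were 0.104% for Tet/Tet neurons minus R1 neurons.

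Islands over 5 kb from any start (1653) had slightly higher levels. Median levels were 25.1% in R1 and 25.2% in Tet/Tet ESCs, and 85.67% in R1 and 19.6% in Tet/Tet neurons. Differences had medians in points of -59.7 for Tet/Tet neurons minus R1 neurons, 44.99 for R1 neurons minus R1 ESCs, and -2.72 for Tet/Tet neurons minus Tet/Tet ESCs.

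With every listed site of each table (2007 islands) fewer values moved. Median levels were 24.8% for R1 ESCs, and 24.9% for Tet/Tet ESCs. Median differences in points were -3.598 for Tet/Tet neurons minus Tet/Tet ESCs. Lower were 12.7% for Tet/Tet ESCs minus R1 ESCs, and 0.149% for R1 neurons minus R1 ESCs.

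Sites outside CCGG, a choice made after seeing the data, left 1612 islands. Median levels were 17.96% in R1 and 17.8% in Tet/Tet ESCs, and 81.6% in R1 and 14.6% in Tet/Tet neurons. Differences had medians in points of -59.1 for Tet/Tet neurons minus R1 neurons, and -0.841 for Tet/Tet neurons minus Tet/Tet ESCs. Higher by at least 10 points were 0.124% for Tet/Tet neurons minus R1 neurons.

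At a difference of at least 25 points, 2.97% of islands were higher for Tet/Tet ESCs minus R1 ESCs, and 1.1998% of islands were higher for Tet/Tet neurons minus Tet/Tet ESCs, and 1.41% were lower for Tet/Tet ESCs minus R1 ESCs, and 0.0522% were lower for R1 neurons minus R1 ESCs.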

Other observations

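On the stretches not analysed here for Tet/Tet neurons, 323 intergenic islands had at least 5 sites in the other 3 tables. Their median level was 85.3% in R1 neurons, while the ESCs of the R1 line had 24.7% and those of the Tet/Tet line 23.4%. The 226 repeat islands among them had 88.96%, 31.3% and 32.1% in that order, and the 78 non-repeat islands 10.6%, 2.84% and 2.59%. Between the ESC libraries 14.6% of these islands were higher and 12.7% lower in Tet/Tet by at least 10 points, with a median difference of -0.0485.

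Islands whose nearest gene was a processed pseudogene, an intronless copy of a transcript, numbered 581 and had medians of 28.3% in R1 and 29.3% in Tet/Tet ESCs, and 87.8% in R1 and 21.6% in Tet/Tet neurons. Those nearest to a protein-coding gene numbered 626 and had 14.2% in R1 and 14.96% in Tet/Tet ESCs, and 73.8% in R1 and 11.1% in Tet/Tet neurons. The 278 islands nearest to a lincRNA gene had 21.9%, 21.5%, 83.2% and 17.6% in the same order, and the 44 nearest to a miRNA gene 18.1%, 21.6%, 77.4% and 13.3%. In R1 ESCs 16.2% of the islands nearest to processed pseudogenes and 46.0% of those nearest to protein-coding genes were under 10%. Repeat share and distance to the gene were not matched between these groups. Their part in the medians was not separated from that of gene type.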
